A study of Mus musculus with 32 samples.

Results

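The genes described are the phase II conjugating enzymes: all genes of the deposited RNA polymerase II (Pol II) table whose symbol begins with Ugt, Gsta, Gstm, Gstp, Gstt or Sult followed by a number. There were 60 of them among 27179 genes, with 21 UDP-glucuronosyltransferase (UGT) genes, 18 glutathione S-transferase (GST) genes and 21 sulfotransferase (SULT) genes. The rule does not use the measured values. No symbol had to be left out as a pseudogene, and all 60 passed the filter on low values.

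The study set Pol II occupancy in formalin-fixed, paraffin-embedded (FFPE) tissue beside that in frozen tissue. It used mouse liver, kidney, heart and brain, each as FFPE and as flash-frozen tissue, and Pol II was precipitated with an antibody against its C-terminal domain. FFPE tissue was fixed in 10% formalin, freed of paraffin and extracted at 95 °C for 20 min, whereas for frozen tissue, cores were first held in 1% formaldehyde for 30 min. Preservation and extraction thus differ together. The 8 groups used were FFPE liver, frozen liver, FFPE kidney, frozen kidney, FFPE heart, frozen heart, FFPE brain and frozen brain. The table holds 1 column per group, called a profile, with a gene's log2 depth-scaled Pol II level. The sources used here do not say whether a profile is 1 library or both libraries of a group, nor do they give strain, sex, age or any treatment of the mice. Since nothing says that profiles come from separate animals, a p-value cannot be read as a spread between animals. It rests on the spread left between these 8 profiles after organ and preservation, drawn largely from all genes together.

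Phase II metabolism attaches a polar group to a drug, toxin, hormone or waste product, so that it dissolves in bile or urine and can be carried out of the cell. UGTs transfer glucuronic acid from UDP-glucuronic acid, GSTs join glutathione to electrophiles, and SULTs transfer a sulfonate group from the donor PAPS. The liver is the best known site of all 3 reactions, the kidney carries out part of them, and a few family members serve other ends, such as making the galactolipids of myelin. Pol II over a gene reports polymerase bound to that gene, which is related to, but not the same as, the amount of its messenger RNA.

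The profiles held 864816 (FFPE liver) to 2178329 (frozen liver) reads in genes, with a median of 16 to 39 reads per gene. The 60 genes held 53 to 680 reads each over all 8 profiles, and 4 of them had 0 reads in at least 1 profile. The mitochondrial share of reads was 25.6% in FFPE heart and 19.2% in FFPE kidney and lay between 7.73% and 12% in the other 6 profiles. Hepatocyte markers were higher in liver in 8 of 8 cases, proximal tubule markers were higher in kidney than in brain and heart in 4 of 6, cardiomyocyte markers were higher in heart in 5 of 6, and in brain 6 of 6 neuron and 3 of 6 oligodendrocyte markers were higher. Of markers of other cell types, 1 of 4 adipocyte (Cidec) and 1 of 4 erythroid genes were higher and 1 of 5 endothelial genes was lower in liver, and 0 of 5 immune and 0 of 4 exocrine pancreas genes were called there in either direction. In such bulk tissue, fewer cells of a type and less Pol II on a gene per cell cannot be told apart. Levels are compared within a gene only, since the sources used here do not give the counted length of a gene.

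The 3 families together took the largest share of nuclear gene reads in liver. They made up 0.150% of the reads in nuclear genes in FFPE liver and 0.245% in frozen liver. In FFPE and frozen kidney the share was 0.104% and 0.122%. FFPE and frozen heart had 0.0828% and 0.0656%, and FFPE and frozen brain had 0.0789% and 0.0793%. The kidney profiles lay between the liver profiles and all 4 heart and brain profiles. UGT genes alone took 0.0627% in FFPE liver and 0.118% in frozen liver, against 0.0178% (frozen heart) to 0.0518% (frozen kidney) in the other 6 profiles. Ugt1a genes, which share exons, held 152 of the 478 UGT reads in FFPE liver and 645 of the 2310 in frozen liver. The sources used here do not say how reads in shared exons were counted. Such reads may enter the UGT and joint shares more than 1 time or be missing from them. GST genes took 0.0511% in FFPE liver and 0.0839% in frozen liver, against 0.0231% (FFPE brain) to 0.0360% (FFPE kidney). SULT genes differed least, with 0.0358% in FFPE liver and 0.0437% in frozen liver, against 0.0176% (frozen heart) to 0.0345% (frozen kidney).

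**Figure D1:**
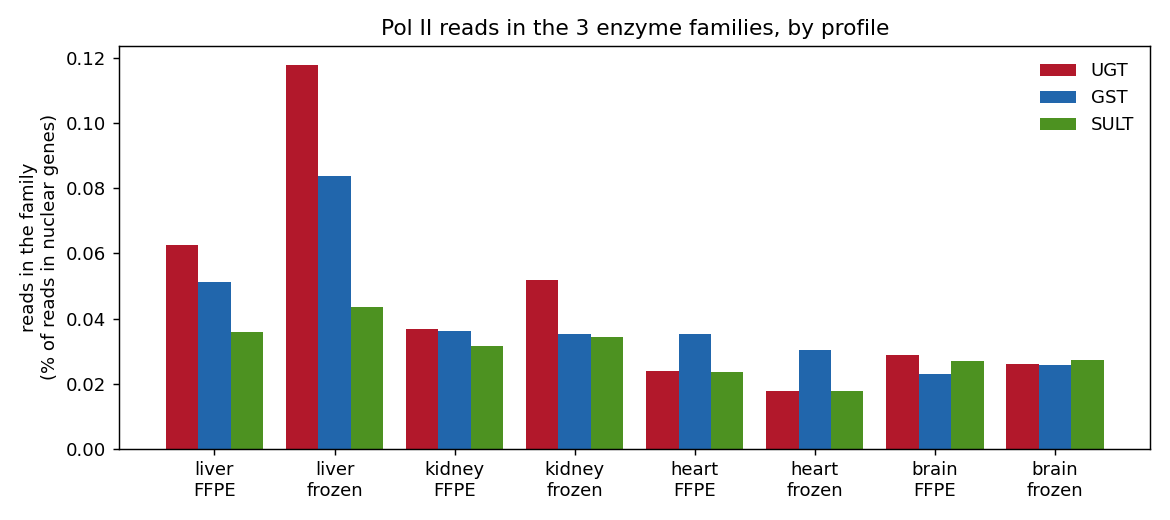
Reads in UGT, GST and SULT genes as a percentage of the reads in nuclear genes (y axis) in each of the 8 profiles (x axis), with 1 bar per family and profile and no error bar, since each bar is 1 profile. For each family both liver bars stand above all bars of the other organs, and frozen liver stands above FFPE liver. How reads in exons shared by Ugt1a genes enter the UGT bars is not known.

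**Figure D2:**
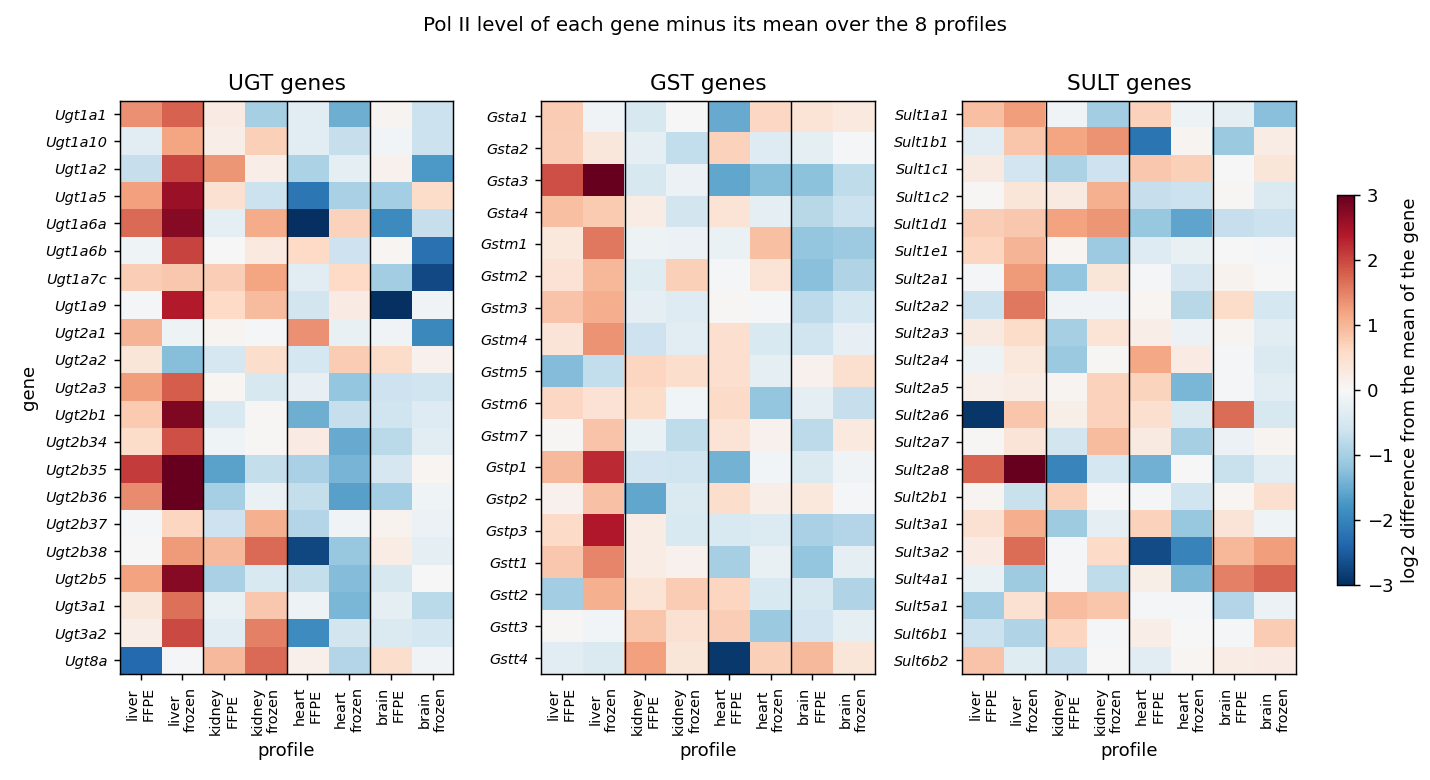
Pol II level of each of the 60 genes in each of the 8 profiles (x axis) as the log2 difference from that gene's own mean over the 8 profiles, in 3 panels for UGT, GST and SULT genes. Red is above and blue is below the gene's mean, and the colour scale stops at 3 in either direction. The liver columns are red for most Ugt2b genes, Gsta3 and Sult2a8, and Sult4a1 is red in brain.

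Liver was set against the mean of kidney, heart and brain to ask which of these genes carry more Pol II in the organ best known for them. Of the 60 genes, 18 were higher in liver and 1 was lower at an adjusted p under 0.05 (limma, 2 against 6 profiles, Benjamini-Hochberg over 26758 genes). Over all genes tested, 4.52% were higher and 3.39% were lower. The 18 were 10 UGT, 5 GST and 3 SULT genes. The median log2 fold of the 60 was 0.85, with 49 above 0, against a median of -0.02 and 48.4% above 0 over all genes. Both liver profiles stood above all 6 others for 18 of the 60 genes, 15 of which were among those called, and this was so for 7.29% of all genes tested. Both stood below all 6 others for 2 genes, Gstm5 and Sult6b1. How often this was so over all genes was not counted, so no weight is given to it.

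Among the UGT genes, the Ugt2b genes of chromosome 5, whose enzymes glucuronidate steroids and other lipophilic compounds, held the largest folds. Of the 7 of them, 5 rose in liver and their median log2 fold was 2.38. Ugt2b35 (chr5:87000860-87013274) had a log2 level of 6.30 in FFPE and 7.22 in frozen liver, against 2.59 to 4.27 (median 3.36) in the other 6 profiles. The groups did not overlap, and the log2 fold was 3.41 ± 0.40, adjusted p = 5.3e-06. Ugt2b36 (chr5:87065927-87092555) stood at 5.17 in FFPE and 7.0 in frozen liver, against 2.12 to 3.63 (median 2.89) in the other 6 profiles (3.11 ± 0.50, adjusted p = 0.00023). For Ugt2b5 (chr5:87124946-87140340) the levels were 5.33 in FFPE and 6.85 in frozen liver, against 2.82 to 4.14 (median 3.53) in the other 6 profiles (2.61 ± 0.43, adjusted p = 0.00027). The levels of Ugt2b1 (chr5:86916639-86926503) were 5.03 in FFPE and 7.04 in frozen liver, against 2.79 to 4.29 (median 3.72) in the other 6 profiles (2.38 ± 0.40, adjusted p = 0.00043). In all 4 genes the lower of the liver profiles, FFPE liver, was still above every other profile. Ugt2b34 rose by less (1.66 ± 0.43, adjusted p = 0.017), as did the neighbouring Ugt2a3 (2.04 ± 0.40, adjusted p = 0.0015). The remaining Ugt2b genes, Ugt2b37 and Ugt2b38, did not pass the threshold, at 0.41 ± 0.52 and 0.84 ± 0.49. Ugt2b genes are paralogs of each other. The sources used here do not say how reads matching more than 1 of them were counted, and identity over the genes was not measured, so their single values are uncertain.

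The 8 Ugt1a genes of the table lie inside one another on chromosome 1, each with its own first exon and all with the same last exons, ending at 88220002 for 7 of them. Reads in the shared exons cannot be assigned to 1 gene. The number of reads counted for all 8 at once can be no larger than the lowest of the 8 counts, which was 3 reads in FFPE liver and 28 in frozen liver. The highest of the 8 counts in these profiles was 78 and 207 reads, both for Ugt1a1. In the other 6 profiles the lowest count was 0 (FFPE heart) to 10 (frozen kidney) and the highest 19 (frozen heart) to 70 (FFPE brain).

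Ugt1a1 (chr1:88211959-88220002), the enzyme that conjugates bilirubin, had a log2 level of 6.40 in FFPE and 6.79 in frozen liver, against 3.55 to 5.27 (median 4.53) in the other 6 profiles, without overlap (2.08 ± 0.33, adjusted p = 0.00018). Ugt1a5 stood at 4.31 in FFPE and 5.68 in frozen liver, against 0.91 to 3.63 (median 2.29) in the other 6 profiles (2.54 ± 0.60, adjusted p = 0.0085). Ugt1a6a, which conjugates planar phenols, stood at 4.39 in FFPE and 5.42 in frozen liver, against -0.67 to 3.79 (median 2.20) in the other 6 profiles (2.96 ± 0.67, adjusted p = 0.0064), and its low end was 0 reads in FFPE heart. The groups did not overlap in these genes. Ugt1a9 overlapped, with 3.01 in FFPE and 5.42 in frozen liver, against -0.44 to 3.99 (median 3.11) in the other 6 profiles, and did not pass the threshold (1.56 ± 0.62, adjusted p = 0.15). The other Ugt1a genes were at 1.27 ± 0.67 (Ugt1a6b), 1.04 ± 0.59 (Ugt1a7c), 0.86 ± 0.75 (Ugt1a2) and 0.55 ± 0.54 (Ugt1a10), none past the threshold. Ugt1a6b stood at 3.01 in FFPE and 5.15 in frozen liver, against 0.88 to 3.72 (median 3.17) in the other 6 profiles. Ugt1a2 stood at 1.91 in FFPE and 4.60 in frozen liver, against 0.88 to 3.93 (median 2.53) in the other 6 profiles, so that the liver profiles lay far apart in both. Ugt1a7c stood at 3.86 in FFPE and 3.92 in frozen liver, against 0.40 to 4.29 (median 3.25) in the other 6 profiles. Ugt1a10 stood at 3.01 in FFPE and 4.53 in frozen liver, against 2.67 to 4.08 (median 3.15) in the other 6 profiles.

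The remaining UGT genes fell into both directions. Ugt3a2, of a subfamily that in humans uses sugars other than glucuronic acid, had 4.23 in FFPE and 5.99 in frozen liver, against 2.14 to 5.55 (median 3.55) in the other 6 profiles, with overlap (1.45 ± 0.44, adjusted p = 0.044). Its neighbour Ugt3a1 stood at 4.77 in FFPE and 6.10 in frozen liver, against 3.07 to 5.24 (median 4.20) in the other 6 profiles and did not pass the threshold (1.33 ± 0.43, adjusted p = 0.061). Ugt8a (chr3:125865272-125938682), which makes the galactosylceramide of myelin, was the only one of the 60 called lower in liver. It stood at 2.27 in FFPE and 4.57 in frozen liver, against 3.71 to 6.29 (median 4.94) in the other 6 profiles (-1.57 ± 0.46, adjusted p = 0.035). That call turned on FFPE liver, where Ugt8a had 4 reads, against 44 in frozen liver: without the FFPE liver profile the log2 fold was -0.26, adjusted p = 0.82. The call was also lost without FFPE brain (-1.35, adjusted p = 0.12), FFPE heart (-1.26, adjusted p = 0.14), FFPE kidney (-1.65, adjusted p = 0.07) or frozen kidney (-1.48, adjusted p = 0.13).

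Among the 18 GST genes, 5 rose in liver and their family median was 0.83. Gsta3 (chr1:21240565-21265575), an alpha-class enzyme that in the mouse conjugates the epoxide of aflatoxin, had the largest fold of all 60 genes. Its log2 level was 6.26 in FFPE and 7.85 in frozen liver, against 2.79 to 4.17 (median 3.34) in the other 6 profiles, which is 71 and 434 reads against 5 to 34 reads. The groups lay more than 2 log2 units apart at their nearest points (3.63 ± 0.38, adjusted p = 1.3e-06). The other 3 alpha-class genes, Gsta1, Gsta2 and Gsta4, were at 0.44 ± 0.70, 0.71 ± 0.58 and 1.12 ± 0.48 and did not pass the threshold. Gsta1 and Gsta2 are close paralogs, so their values are uncertain in the same way. Promoter windows from RefSeq (GRCm38.p6, 250 bases before to 50 bases after an annotated start) were matched for 52 of the 60 genes, and 8 had none (Sult2a2, Gsta4, Gstt2, Sult2a1, Ugt3a2, Sult4a1, Ugt1a6b and Sult2a7). The window of Gsta3 is shown as that of the gene with the largest fold. Its capitals mark TGACNNNGC, the core of the antioxidant response element bound by the product of Nfe2l2, with the first letter at -121 from the start. That core, searched on both strands, was in the windows of 3 of the 52 genes (Gsta3, Gstm5 and Gstm7) and in 12.4% of all 32851 windows. Of the 3, only Gsta3 was called higher in liver. The motif was chosen with values of these genes known, and a match is no evidence that a factor binds.
Gsta3 (chr1:21240335-21240634, plus strand): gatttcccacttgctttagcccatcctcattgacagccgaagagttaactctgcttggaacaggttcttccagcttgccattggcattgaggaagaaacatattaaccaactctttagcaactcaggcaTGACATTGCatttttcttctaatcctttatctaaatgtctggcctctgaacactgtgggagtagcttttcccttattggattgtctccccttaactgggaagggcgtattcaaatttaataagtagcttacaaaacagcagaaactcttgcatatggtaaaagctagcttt

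Of the 3 pi-class genes on chromosome 19, which conjugate small electrophiles, 2 rose. Gstp1 (chr19:4035411-4037912) stood at 5.41 in FFPE and 6.68 in frozen liver, against 3.03 to 4.35 (median 3.93) in the other 6 profiles, without overlap (2.14 ± 0.37, adjusted p = 0.00056), and Gstp3 rose by 1.98 ± 0.53, adjusted p = 0.021. Gstp2, a close paralog of Gstp1, was at 0.67 ± 0.59 and did not pass. Of the 7 mu-class genes, Gstm1 alone passed the threshold, with 5.82 in FFPE and 7.09 in frozen liver, against 4.35 to 6.41 (median 5.32) in the other 6 profiles (1.26 ± 0.29, adjusted p = 0.0072). Its FFPE liver level was below that of frozen heart, so the groups overlapped. Gstm5, which stands at the end of the mu cluster, lay below all other profiles in both liver profiles, with 1.91 in FFPE and 2.48 in frozen liver, against 2.95 to 3.86 (median 3.71) in the other 6 profiles, but did not pass (-1.35 ± 0.54, adjusted p = 0.14). The other 5 mu-class genes lay between 0.60 ± 0.42 (Gstm7) and 1.29 ± 0.43 (Gstm3). Of the 4 theta-class genes, Gstt1 rose (1.53 ± 0.44, adjusted p = 0.034). Gstt2, the theta gene with the most reads, did not differ past the threshold (0.03 ± 0.41, adjusted p = 0.99), with 3.96 in FFPE and 6.07 in frozen liver, against 4.10 to 5.75 (median 4.97) in the other 6 profiles. Its liver profiles lay at the bottom and at the top of all 8.

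Among the 21 SULT genes, 3 rose in liver and the family median was 0.32. Sult2a8 (chr7:14410686-14446780), which sulfonates bile acids in mouse liver, had 5.70 in FFPE and 7.09 in frozen liver, against 1.96 to 3.92 (median 3.34) in the other 6 profiles, without overlap (3.28 ± 0.43, adjusted p = 2e-05). The other 7 Sult2a genes lay between -1.40 ± 0.89 (Sult2a6) and 0.83 ± 0.62 (Sult2a1), none past the threshold. Sult2a6 had -0.90 in FFPE and 2.85 in frozen liver, against 1.54 to 3.71 (median 2.35) in the other 6 profiles (adjusted p = 0.44). The Sult2a genes are paralogs in 1 cluster on chromosome 7, and their single values are uncertain as those of the Ugt2b genes are. Sult1a1, which sulfonates phenols, rose by 1.43 ± 0.32, adjusted p = 0.0059. Sult1d1, which acts on catecholamines, stood at 5.61 in FFPE and 5.68 in frozen liver, against 3.28 to 6.19 (median 4.20) in the other 6 profiles and rose by 1.04 ± 0.31, adjusted p = 0.037, with kidney above liver. The call of Sult1d1 was lost in 7 of the 8 fits with 1 profile left out (adjusted p up to 0.28). Of the remaining SULT genes with the most reads in their subfamily, Sult3a1 stood at 3.19 in FFPE and 3.82 in frozen liver, against 1.59 to 3.42 (median 2.53) in the other 6 profiles (adjusted p = 0.43). Sult5a1 stood at 2.56 in FFPE and 4.07 in frozen liver, against 2.73 to 4.53 (median 3.56) in the other 6 profiles (adjusted p = 0.75). Sult6b1 stood at 3.01 in FFPE and 2.73 in frozen liver, against 3.59 to 4.42 (median 3.74) in the other 6 profiles and thus below all others in both liver profiles (-1.03 ± 0.47, adjusted p = 0.23).

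**Figure D3:**
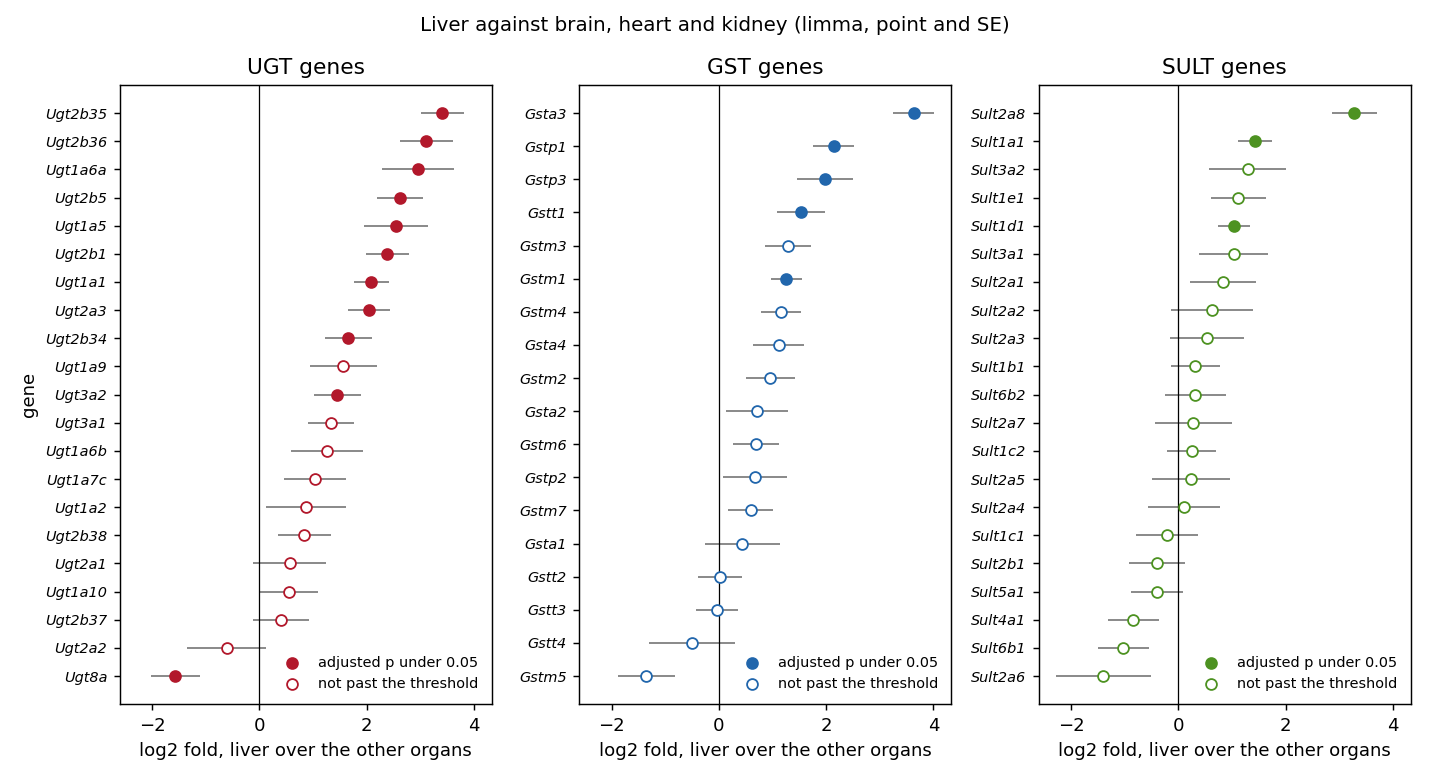
Log2 fold of liver over the mean of kidney, heart and brain (x axis; point and standard error from limma, 2 against 6 profiles) for the 60 genes (y axis), in 1 panel per family. Filled points passed an adjusted p of 0.05 and open points did not; Gsta3, Ugt2b35, Sult2a8 and Ugt2b36 lie above 3, and Ugt8a is the only filled point below 0.

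Fewer liver calls were made without the frozen liver profile, the most deeply sequenced, both among these genes and over the whole table. Without it 1.21% of all genes were called higher, against 4.52% with it, and 4 of the 18 were called higher: Gsta3 (3.01, adjusted p = 0.0022), Ugt2b35 (3.12, adjusted p = 0.0023), Sult2a8 (3.13, adjusted p = 0.0063) and Ugt1a6a (3.54, adjusted p = 0.047). The lone FFPE liver profile is then assumed to vary like the other organs. Ugt2b36 was then at 2.33, adjusted p = 0.088, Ugt2b5 at 1.93, adjusted p = 0.093, Gstp1 at 1.77, adjusted p = 0.073, Ugt1a5 at 2.13, adjusted p = 0.25, Ugt2b1 at 1.62, adjusted p = 0.16, Ugt1a1 at 1.37, adjusted p = 0.07 and Gstm1 at 0.81, adjusted p = 0.31. Their folds stayed above 0. Without the FFPE liver profile 6.14% of all genes and 19 of the 60 were called higher, 15 of them among the 18; of the 10 with the largest folds, Ugt1a6a was not (2.37, adjusted p = 0.13). With only the 4 frozen or only the 4 FFPE profiles, few or none of the 60 and few of all genes were called higher (limma, 1 against 3 in each case). The spread in these fits is that between brain, heart and kidney, so they cannot show that a liver difference is absent.

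FFPE liver showed the liver difference of most genes called higher in liver at a smaller size than frozen liver. All 18 genes called higher in liver had a log2 difference above 0 from the mean of the other organs within FFPE tissue and within frozen tissue, and 13 had a difference of at least 1 in both. The mean difference of the 18 was 1.80 in FFPE tissue and 2.71 in frozen tissue, and 17 of the 18 were smaller in FFPE tissue, Ugt1a6a being the exception. Among all 60 genes 48 had the lower difference, sign included, in FFPE tissue, against 51.1% of all genes tested. Such a count takes in negative differences that were larger in size in FFPE tissue, as for Ugt8a (-2.87 in FFPE and -0.26 in frozen tissue). The 18 were chosen in the same profiles, and these counts have no test. Summed hepatocyte markers, 8 of 8 of them with reads in every profile, made up 0.208% of the scaled total in FFPE liver and 0.997% in frozen liver, against 0.00798% (frozen heart) to 0.0189% (frozen kidney) elsewhere. Their part in the smaller difference was not tested.

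The test of the difference itself compared FFPE minus frozen in liver with its mean in kidney, heart and brain (limma, 1 against 3 differences, the lone liver difference being assumed to vary like the others). It called 0 of the 60 genes higher and 1 lower, against 0.112% and 0.419% of all genes. That gene was Gstt2, which had 14 reads in FFPE liver and 126 in frozen liver. FFPE minus frozen was -2.11 in liver, against -0.36 in kidney, 1.10 in heart and 0.42 in brain, and the log2 difference between them was -2.50 ± 0.59, adjusted p = 0.037. The call was lost under 4 of the 6 alternatives run for it (adjusted p from 0.055 to 0.19). At an unadjusted p under 0.05 there were 0 higher and 11 lower among the 60, against 4.54% and 6.78% of all genes. The median of the 60 was -0.72, against -0.03 over all genes.

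**Figure D4:**
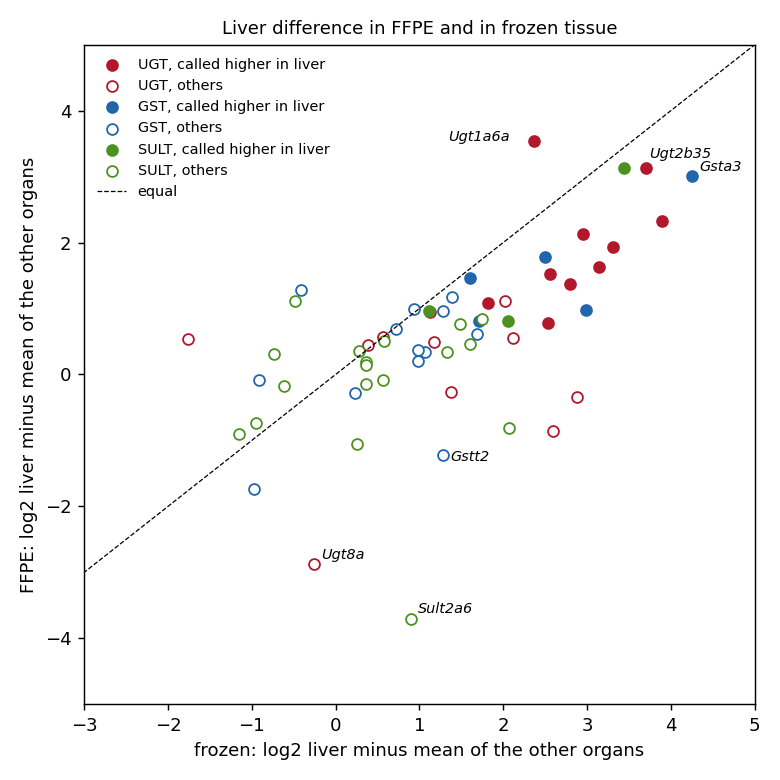
Log2 difference of liver from the mean of kidney, heart and brain in FFPE tissue (y axis) and in frozen tissue (x axis) for the 60 genes, 1 point each, coloured by family and filled where called higher in liver; the dashed line marks equal differences. There are no error bars, since each value has 1 liver profile. Of the 18 filled points, 17 lie below the line and all 18 lie above 0 on both axes.

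Kidney was set against the mean of brain and heart to ask which conjugating genes its cells carry apart from liver. Of the 60 genes, 3 were higher and 0 lower in kidney (limma), against 1.24% and 0.893% of all genes. At an unadjusted p under 0.05 there were 13 higher and 0 lower, against 5.72% and 5.9% of all genes. With precision weights there were 5 higher and 0 lower, against 2.11% and 1.29% of all genes. Sult1d1 (chr5:87554650-87569006) had 6.07 in FFPE and 6.19 in frozen kidney, against 4.17 and 4.23 in FFPE and frozen brain and 3.72 and 3.28 in FFPE and frozen heart, without overlap (2.28 ± 0.32, adjusted p = 0.00028). Ugt2b38 (chr5:87409939-87424203) had 4.61 in FFPE and 5.34 in frozen kidney, against 3.86 and 3.36 in FFPE and frozen brain and 0.91 and 2.51 in FFPE and frozen heart, also without overlap (2.31 ± 0.52, adjusted p = 0.017). Sult1b1 (chr5:87513327-87538195), which sulfonates thyroid hormones, had 5.01 in FFPE and 5.18 in frozen kidney, against 2.73 and 4.05 in FFPE and frozen brain and 1.65 and 3.92 in FFPE and frozen heart, without overlap (2.01 ± 0.49, adjusted p = 0.029). Both kidney profiles stood above all 4 brain and heart profiles for 14 of the 60 genes, against 9.45% of all genes. Set against brain, heart and liver together, kidney was higher for 1 of the 60, Sult1d1 (1.68 ± 0.31, adjusted p = 0.0036), against 0.919% of all genes higher and 0.456% lower.

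Several Ugt1a genes had kidney levels above those of brain and heart without passing the threshold. Ugt1a7c had 3.86 in FFPE and 4.29 in frozen kidney, against 2.07 and 0.40 in FFPE and frozen brain and 2.79 and 3.71 in FFPE and frozen heart (1.84 ± 0.62, adjusted p = 0.16), without overlap. Ugt1a9 had 3.63 in FFPE and 3.99 in frozen kidney, against -0.44 and 2.93 in FFPE and frozen brain and 2.50 and 3.28 in FFPE and frozen heart (1.74 ± 0.66, adjusted p = 0.24), also without overlap. Ugt1a6a had 2.41 in FFPE and 3.79 in frozen kidney, against 0.79 and 1.98 in FFPE and frozen brain and -0.67 and 3.38 in FFPE and frozen heart (1.73 ± 0.71, adjusted p = 0.31), with overlap. Ugt1a2 had 3.93 in FFPE and 2.82 in frozen kidney, against 2.73 and 0.88 in FFPE and frozen brain and 1.65 and 2.33 in FFPE and frozen heart (1.47 ± 0.79, adjusted p = 0.51). All 8 Ugt1a genes had a fold above 0, with a median of 1.18, against 49.96% of all genes above 0, and none was called. These genes share their last exons, so the 8 folds are not separate measurements. None of the 3 kidney calls held without frozen kidney, when 0.127% of all genes were called higher and the log2 folds were 2.17, adjusted p = 0.068 for Sult1d1, 2.35, adjusted p = 0.27 for Ugt2b38 and 2.72, adjusted p = 0.11 for Sult1b1. Without FFPE kidney, whose mitochondrial share was high, 0.172% of all genes were called higher, and Sult1d1 kept its call (2.39, adjusted p = 0.043), whereas Ugt2b38 (2.28, adjusted p = 0.4) and Sult1b1 (1.30, adjusted p = 0.76) did not. Leaving out FFPE heart or frozen brain likewise left Sult1d1 as the only call: Ugt2b38 was then at 2.04, adjusted p = 0.059 and 1.89, adjusted p = 0.18, and Sult1b1 at 1.66, adjusted p = 0.1 and 2.04, adjusted p = 0.13. Sult1b1 also lost its call without FFPE brain (1.98, adjusted p = 0.097).

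Liver and kidney were then compared directly (limma, 2 against 2 profiles). Of the 60 genes, 10 were higher and 1 lower in liver, against 2.34% and 1.43% of all genes. Ugt2b35 stood at 6.30 in FFPE and 7.22 in frozen liver, against 2.59 in FFPE and 3.49 in frozen kidney (3.72 ± 0.49, adjusted p = 5.3e-05). Sult2a8 stood at 5.70 in FFPE and 7.09 in frozen liver, against 1.96 in FFPE and 3.42 in frozen kidney (3.71 ± 0.52, adjusted p = 0.00013). Gsta3 stood at 6.26 in FFPE and 7.85 in frozen liver, against 3.86 in FFPE and 4.17 in frozen kidney (3.04 ± 0.47, adjusted p = 0.00031). The groups lay apart in all 3 genes. Further higher genes were Ugt2b36 (2.93 ± 0.61), Ugt2b5 (2.68 ± 0.52), Gstp1 (2.19 ± 0.46), Ugt2b1 (2.0 ± 0.50), Ugt1a1 (1.94 ± 0.40), Ugt2a3 (1.75 ± 0.48) and Sult1a1 (1.64 ± 0.40). Ugt8a was lower in liver, with 2.27 in FFPE and 4.57 in frozen liver, against 5.56 in FFPE and 6.29 in frozen kidney (-2.50 ± 0.56, adjusted p = 0.0098). It was at -1.20, adjusted p = 0.15 without FFPE liver, -2.76, adjusted p = 0.097 without FFPE kidney and -2.24, adjusted p = 0.28 without frozen kidney. Not past the threshold were Ugt1a5 (2.0 ± 0.73, adjusted p = 0.16), Ugt1a6a (1.80 ± 0.82, adjusted p = 0.31), Gstp3 (1.60 ± 0.65, adjusted p = 0.22) and Gstm5 (-1.60 ± 0.66, adjusted p = 0.23). Without frozen kidney 3 genes were called (Ugt2b35, Sult2a8 and Gsta3, all higher), against 0.569% of all genes higher. Without frozen liver 5 were called, 3 of them higher, against 0.718% of all genes, and without FFPE kidney 5, all higher, against 1.16%.

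Neighbouring genes on chromosome 5 included some called in liver, some called in kidney and some called in neither. From 86889770 to 87591611 the order is Ugt2b34, Ugt2b1, Ugt2b35, Ugt2b36, Ugt2b5, Ugt2b37, Ugt2a3, Ugt2b38, Ugt2a1, Ugt2a2, Sult1b1, Sult1d1 and Sult1e1. The first 5 in this order, and Ugt2a3, rose in liver against the other 3 organs. Ugt2b38, Sult1b1 and Sult1d1, further along, rose in kidney against brain and heart, and Sult1d1 rose in liver too. In liver minus kidney these 3 were at -0.71 ± 0.60, -1.02 ± 0.57 and -0.48 ± 0.37, none past the threshold, and none of the 3 kidney calls held without frozen kidney. Neither position nor the difference between genes was tested. Ugt2a1, known from the olfactory epithelium, and Ugt2a2, which overlaps it, were at 0.57 ± 0.68 and -0.61 ± 0.74 in liver and did not pass. Sult1e1, the estrogen sulfotransferase, was at 1.12 ± 0.51 and did not pass either.

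**Figure D5:**
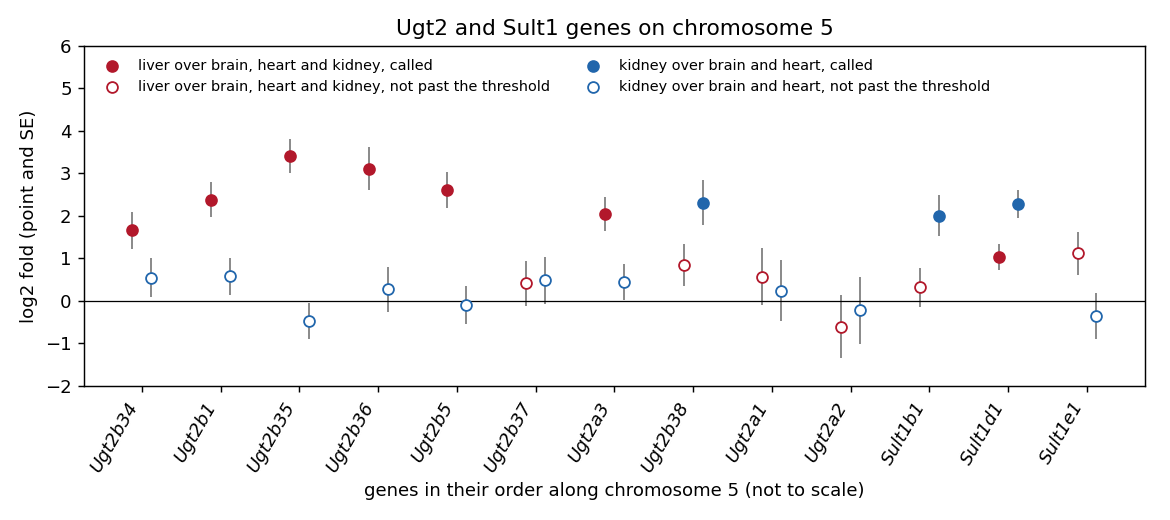
Log2 folds with standard errors (y axis; limma) of the 13 Ugt2 and Sult1 genes in their order along chromosome 5 (x axis, not to scale), for liver over the mean of kidney, heart and brain and for kidney over the mean of brain and heart. Filled points passed an adjusted p of 0.05; the filled liver points, apart from Sult1d1, are on the left and the filled kidney points (Ugt2b38, Sult1b1 and Sult1d1) on the right.

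Ugt2b5 and Ugt2b38 have similar promoter windows, and only the first was called between liver and kidney. Ugt2b5 was at 2.68 ± 0.52, adjusted p = 0.0031, for liver minus kidney, and Ugt2b38 at -0.71 ± 0.60, adjusted p = 0.69. The difference between the folds of these genes was not tested. The windows share 261 letters in a global alignment, with 29 mismatches and 20 letters against gaps, which is an identity of 84.19%. Among 88 pairs of windows within subfamilies, the only pair with a higher identity was Ugt2b37 and Ugt2b38 (87.26%), neither of which was called: Ugt2b37 was at 0.09 ± 0.64 for liver minus kidney. The median over the Ugt2b pairs was 55.33%. Both windows are shown, with capitals at the letters that differ from the other window or stand against a gap, 39 in each.
Ugt2b5 (chr5:87140291-87140590, minus strand): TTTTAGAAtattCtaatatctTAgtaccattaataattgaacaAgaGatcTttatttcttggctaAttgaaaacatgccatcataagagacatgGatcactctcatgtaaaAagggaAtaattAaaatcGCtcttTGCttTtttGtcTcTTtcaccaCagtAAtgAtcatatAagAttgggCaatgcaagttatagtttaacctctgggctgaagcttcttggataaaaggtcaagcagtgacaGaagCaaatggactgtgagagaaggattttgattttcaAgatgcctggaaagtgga
Ugt2b38 (chr5:87424154-87424453, minus strand): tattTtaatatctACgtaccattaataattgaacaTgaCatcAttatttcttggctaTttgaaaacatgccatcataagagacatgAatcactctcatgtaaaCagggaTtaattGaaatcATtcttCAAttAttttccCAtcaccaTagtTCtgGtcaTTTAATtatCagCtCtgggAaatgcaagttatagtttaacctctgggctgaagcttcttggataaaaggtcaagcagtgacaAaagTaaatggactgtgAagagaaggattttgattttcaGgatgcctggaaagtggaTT

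Brain was set against the mean of heart, kidney and liver. Of the 60 genes, 1 was higher and 4 were lower in brain (limma), against 3.43% and 4.02% of all genes. Sult4a1 (chr15:84076097-84105754), a brain sulfotransferase without an established substrate, was the one that rose. It had 5.20 in FFPE and 5.44 in frozen brain, against 2.33 to 3.85 (median 3.21) in the other 6 profiles, without overlap (2.18 ± 0.47, adjusted p = 0.0045). Its liver levels were 3.49 in FFPE and 2.61 in frozen liver (-0.84 ± 0.47 against the other organs, not past the threshold). Neuron and oligodendrocyte markers both moved with it, 6 of 6 in each list with reads in every profile. Neuron markers made up 0.0638% and 0.0663% of the scaled total in FFPE and frozen brain, against 0.00937% (frozen liver) to 0.0215% (FFPE liver) elsewhere. Oligodendrocyte markers made up 0.0398% and 0.0402%, against 0.0108% (frozen liver) to 0.0155% (frozen kidney) elsewhere. The part of either list in the result was not tested. Ugt1a7c fell, with 2.07 in FFPE and 0.40 in frozen brain, against 2.79 to 4.29 (median 3.86) in the other 6 profiles (-2.51 ± 0.59, adjusted p = 0.0082). Ugt1a9 fell, with -0.44 in FFPE and 2.93 in frozen brain, against 2.50 to 5.42 (median 3.46) in the other 6 profiles (-2.39 ± 0.62, adjusted p = 0.018), and its FFPE brain value stands on 1 read. Gstm1 fell, with 4.35 in FFPE and 4.42 in frozen brain, against 5.31 to 7.09 (median 5.58) in the other 6 profiles (-1.50 ± 0.29, adjusted p = 0.0017). Gsta3 fell, with 3.11 in FFPE and 3.57 in frozen brain, against 2.79 to 7.85 (median 4.02) in the other 6 profiles (-1.33 ± 0.38, adjusted p = 0.033). This comparison includes liver and kidney, and both brain levels of Gsta3 lay above those of FFPE and frozen heart (2.79 and 3.07). The groups overlapped for Gsta3 and Ugt1a9 and lay apart for Gstm1 and Ugt1a7c.

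Ugt8a did not differ past the threshold in brain (0.28 ± 0.46, adjusted p = 0.84). It had 5.12 in FFPE and 4.49 in frozen brain, against 5.56 in FFPE and 6.29 in frozen kidney and 4.75 in FFPE and 3.71 in frozen heart, so that kidney and not brain had its highest levels. Not past the threshold were also Ugt1a6a (-1.73 ± 0.67, adjusted p = 0.14), Sult3a2 (1.51 ± 0.71, adjusted p = 0.26), Ugt1a6b (-1.46 ± 0.67, adjusted p = 0.24) and Gstm2 (-1.44 ± 0.46, adjusted p = 0.061). Without frozen brain 0 of the 60 were called by limma, against 0.412% of all genes higher and 0.434% lower, and the folds were 1.54, adjusted p = 0.58 for Sult4a1, -1.44, adjusted p = 0.62 for Ugt1a7c, -3.48, adjusted p = 0.06 for Ugt1a9, -1.14, adjusted p = 0.3 for Gstm1 and -1.20, adjusted p = 0.54 for Gsta3. Without FFPE brain 3 were called, against 0.981% and 1.31% of all genes, Ugt1a9 (-1.30, adjusted p = 0.62) and Gsta3 (-1.46, adjusted p = 0.24) being lost. Both were also lost without FFPE kidney (-2.09, adjusted p = 0.083 and -1.25, adjusted p = 0.092) and without FFPE heart (-2.18, adjusted p = 0.051 and -1.24, adjusted p = 0.064), and Gsta3 was lost without frozen liver (-1.12, adjusted p = 0.13). Without FFPE liver 9 were called, 8 of them lower, against 5.17% of all genes higher and 6.92% lower in that fit.

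Heart was set against the mean of brain, kidney and liver. Of the 60 genes, 0 were higher and 9 were lower in heart (limma), against 3.06% and 2.18% of all genes. At an unadjusted p under 0.05 there were 0 higher and 17 lower, against 9.01% and 9.04% of all genes. Precision weights gave 0 higher and 7 lower, against 4.57% and 1.31% of all genes. Of the marker lists, 5 of 8 hepatocyte and 2 of 6 proximal tubule genes were lower in heart, and 4 of 5 endothelial genes were higher. Summed endothelial markers, all 5 with reads in every profile, made up 0.0604% and 0.0737% of the scaled total in FFPE and frozen heart, against 0.0145% (frozen brain) to 0.0358% (frozen kidney) elsewhere, and their part in the result was not tested. Liver and kidney are part of this comparison, and 8 of the 9 genes (Gsta3, Ugt2b35, Ugt2b1, Ugt1a1, Ugt1a5, Ugt3a2, Ugt2b38 and Sult1d1) were also called higher in liver or kidney above. Sult1d1 stood at 3.72 in FFPE and 3.28 in frozen heart, against 4.17 to 6.19 (median 5.65) in the other 6 profiles (-1.82 ± 0.31, adjusted p = 0.00067), below every other profile in both. Ugt2b38 stood at 0.91 in FFPE and 2.51 in frozen heart, against 3.36 to 5.34 (median 4.24) in the other 6 profiles (-2.57 ± 0.49, adjusted p = 0.0024). Gsta3 stood at 2.79 in FFPE and 3.07 in frozen heart, against 3.11 to 7.85 (median 4.02) in the other 6 profiles (-1.88 ± 0.38, adjusted p = 0.0038). Sult3a2 was the one of the 9 that was not called in liver or kidney. It had -0.67 in FFPE and 0.01 in frozen heart, against 1.96 to 3.71 (median 2.80) in the other 6 profiles, without overlap (-3.14 ± 0.71, adjusted p = 0.0094), and 0 reads in FFPE heart and 1 in frozen heart.

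The other genes called lower in heart were Ugt1a5 (-2.10 ± 0.60, adjusted p = 0.041), Ugt3a2 (-1.63 ± 0.44, adjusted p = 0.03), Ugt2b35 (-1.57 ± 0.40, adjusted p = 0.02), Ugt2b1 (-1.44 ± 0.40, adjusted p = 0.038) and Ugt1a1 (-1.21 ± 0.33, adjusted p = 0.03). Ugt1a5 stood at 0.91 in FFPE and 2.12 in frozen heart, against 2.07 to 5.68 (median 3.59) in the other 6 profiles. Ugt3a2 had 2.14 in FFPE and 3.47 in frozen heart, against 3.50 to 5.99 (median 3.97) in the other 6 profiles. For Ugt2b35 the levels were 3.23 in FFPE and 2.82 in frozen heart, against 2.59 to 7.22 (median 3.99) in the other 6 profiles. The groups overlapped in Ugt1a5 and Ugt2b35 and lay apart in Ugt3a2. Ugt2b1 had 2.79 in FFPE and 3.55 in frozen heart, against 3.65 to 7.04 (median 4.07) in the other 6 profiles, without overlap. Ugt1a1 had 4.69 in FFPE and 3.55 in frozen heart, against 4.04 to 6.79 (median 5.20) in the other 6 profiles, with overlap. Not past the threshold were Ugt1a6a (-1.78 ± 0.67, adjusted p = 0.14), Ugt2b36 (-1.56 ± 0.50, adjusted p = 0.073), Gstt4 (-1.45 ± 0.81, adjusted p = 0.37) and Sult1b1 (-1.41 ± 0.46, adjusted p = 0.083). Without frozen heart 1 gene was called, Ugt2b38 (-3.12, adjusted p = 0.027). Over all genes 0.502% were then lower. Without FFPE heart 5 were called lower, 3 of them among the 9, against 0.696% of all genes, and without FFPE brain 4, against 0.996%.

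FFPE was set against frozen over the 4 organs to ask whether preservation shifts these genes. None of the 60 was called by limma (4 against 4 profiles, organ as a block), against 0.153% of all genes higher and 0.422% lower. With precision weights none was called either, against 0.232% higher and 0.927% lower. At shares this low, a count of 0 among 60 genes cannot show that preservation leaves them unshifted. At an unadjusted p under 0.05 there were 2 higher and 8 lower, against 3.79% and 5.53% of all genes. The median log2 fold was -0.22, with 19 of 60 above 0, against a median of -0.01 and 48.9% above 0 over all genes. The smallest p belonged to Ugt1a6a (-1.92 ± 0.58, adjusted p = 0.18), which differed by -1.04 in liver, -1.38 in kidney, -4.05 in heart and -1.20 in brain (FFPE minus frozen). Ugt1a9 (-1.73 ± 0.54, adjusted p = 0.2) differed by -2.41, -0.36, -0.78 and -3.37 in the same order of organs. Both genes were lower in FFPE tissue of all 4 organs. Ugt3a2 (-1.21 ± 0.38, adjusted p = 0.21) differed by -1.76, -1.83, -1.33 and 0.09, and Sult2a8 (-1.16 ± 0.37, adjusted p = 0.22) by -1.39, -1.46, -1.42 and -0.37. Without the FFPE heart and kidney profiles Ugt1a9 was called lower (-2.89, adjusted p = 0.04).

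Genes around the 3 reactions were taken from 4 lists. Of 12 transcription factors and partners that govern phase II genes, 8 rose in liver and none fell (limma), with a median log2 fold of 1.54, against 4.52% of all genes higher and a median of -0.02 over all. They were the nuclear receptors Hnf4a (2.77 ± 0.30), Nr1i3 (2.50 ± 0.33), Nr1i2 (1.47 ± 0.31), Nr1h4 (1.50 ± 0.32), Ppara (1.57 ± 0.23) and Rxra (1.76 ± 0.27), with Cebpa (2.10 ± 0.33) and the dioxin receptor Ahr (1.78 ± 0.24). Nfe2l2 and Keap1, the activator of GST genes under electrophile stress and its inhibitor, were at 0.22 ± 0.30 and 0.26 ± 0.23 and did not pass the threshold. In kidney against brain and heart, 3 of the 12 rose, against 1.24% of all genes: Hnf4a (3.02 ± 0.31), Nr1h4 (1.86 ± 0.34) and Maf (1.11 ± 0.29).

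For this and the lists below, the shares over all genes were 4.52% higher and 3.39% lower in liver. Of 17 other conjugating enzymes, 5 rose in liver and none fell, with a median of 1.03. The 5 were Mgst1, a membrane-bound GST (2.68 ± 0.49), Glyat, which conjugates glycine (2.53 ± 0.54), Baat, which conjugates bile acids (2.42 ± 0.45), Gstz1 (1.62 ± 0.40) and the acetyltransferase Nat2 (1.59 ± 0.41). Glyat also rose in kidney against brain and heart (3.55 ± 0.57). Of 11 genes for the supply or transport of the cosubstrates, 2 rose in liver and none fell, with a median of 0.61. Gclc, the catalytic subunit of the first enzyme of glutathione synthesis, was at 1.17 ± 0.27. Slc35b2, which carries PAPS into the Golgi, was at 1.03 ± 0.26. Ugdh, which makes UDP-glucuronic acid, was at 0.67 ± 0.28 and Papss2, which makes PAPS, at 0.83 ± 0.26, neither past the threshold. Of the 12 tested of 13 genes for export and hydrolysis, 3 rose in liver and none fell, with a median of -0.06. The 3 were the conjugate exporters Abcc2 (2.40 ± 0.25) and Abcc3 (1.70 ± 0.24) and the epoxide hydrolase Ephx2 (1.44 ± 0.27). Abcc2 also rose in kidney against brain and heart (1.15 ± 0.27). Ggt1, which cleaves glutathione conjugates at the surface of kidney tubules, was lower in liver than in kidney (-1.96 ± 0.47, limma adjusted p = 0.015). The members of the 4 lists were chosen with earlier results of these data known.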

How the data were processed

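The deposited values of mouse Pol II libraries were used; input libraries were not analysed here. The series has 32 libraries in 16 groups of 2, and replicate numbers also differ in sequencing date and library kit. The columns carry no replicate number, so neither could be examined. Per the submitters' processing notes, the authors used Bowtie2, the mm10 build, featureCounts and limma; the sources used here give no versions, strand of counting or counted length. Over the 8 profiles, genes with a span under 10 kb had a median of 106 reads, those of 10 to 100 kb 398, those of 100 to 1000 kb 592 and the 60 longer ones 431.5, so reads rose far less than the span.

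The authors deposited log2 values, on the scale of limma's voom function, with 0.5 reads added to each count and division by a scaled total (scaling factors 0.862 to 1.12). Solved back, 100% of them gave whole reads (relative tolerance 1e-06). The same added reads make values near 0 reads depend on depth. All 60 genes matched the RefSeq position table (GRCm38.p6, the build named mm10), where 10 overlap another of the 60 and 21 overlap other genes.

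limma 3.58.1 in R 4.3.3 was fitted on the 26758 genes that reached a log2 value of 0 in 2 or more profiles, with organ and preservation as terms (3 residual degrees of freedom, prior 19.4), empirical Bayes with a trend, and Benjamini-Hochberg adjustment over all genes at 0.05. Values after ± are standard errors. FFPE minus frozen in liver was set against its mean in kidney, heart and brain in a fit on the 4 differences. Of the fits, only the liver comparison of the main fit was tried on simulated reads, with known liver folds and no effect of preservation. The other comparisons and alternatives were not tried in this way. Genes named with values in every profile were, per organ comparison, up to 10 called with the largest folds and up to 4 not called, the 4 smallest p for FFPE against frozen, the gene with the most reads of each subfamily, and the Ugt1a genes; other called genes are named with their folds. Alternatives were other filters, normalizations, added reads, precision weights and profiles left out. Some genes of the pathway lists are not reported here and were left out of the counts. The genes, lists, tests and the motif were chosen with earlier results of these data known.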

Additional observations from a re-analysis of the deposited data

Results flagged for a closer look

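Gstt2, a theta-class glutathione S-transferase, was the one gene of the 60 whose FFPE minus frozen difference in liver was called different from the mean of kidney, heart and brain. No other organ was set apart in this way. The log2 difference in liver minus the mean of kidney, heart and brain was -2.50 (limma adjusted p = 0.037, 1 difference against 3), with -2.11 in liver, -0.36 in kidney, 1.10 in heart and 0.42 in brain. The single liver difference has no spread of its own and is assumed to vary like the others. The call was lost under 4 of the 6 alternatives run for it, with adjusted p from 0.055 to 0.19. It rests on 14 reads in FFPE liver and 126 in frozen liver.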

How the results depend on the processing

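Profiles left out 1 at a time gave 4 to 19 genes called higher in liver (main count 18), 0 to 4 higher in kidney (3), 3 to 14 called between liver and kidney (11), 0 to 9 in brain (5), 1 to 12 in heart (9) and 0 in each such fit of FFPE against frozen (0). The calls over all genes moved in the same fits, from 1.21% to 6.14% higher in liver and 0.127% to 2.3% higher in kidney, and from 0.756% to 7.27% called between liver and kidney, 0.846% to 12.1% in brain, 0.877% to 8.54% in heart and 0.0861% to 0.415% for FFPE against frozen. With only frozen or only FFPE profiles few or none were called higher in liver, the spread there being that between brain, heart and kidney. Precision weights gave 5 higher in kidney, against 2.11% of all genes. They gave 17 between liver and kidney, against 4.5% of all genes higher and 2.19% lower. Kidney against brain, heart and liver gave 1 higher, against 0.919% of all genes. Leaving out the FFPE heart and kidney profiles together, an alternative chosen after seeing the data, gave 1 for FFPE against frozen. Over all genes 0.0526% were then higher and 0.27% lower. Kidney then held 1 profile, so its count is not given. Another scaling used 1478 olfactory and vomeronasal receptor genes, picked by name and assumed silent in these organs, which was not checked. This scaling gave 4 in heart, against 2.66% of all genes higher and 0.863% lower. It gave 2 for FFPE against frozen, Ugt1a6a (-2.10) and Ugt1a9 (-1.92), both lower, against 0.168% of all genes higher and 0.471% lower. The median of all genes then moved to 0.25 in heart, -0.18 in brain, -0.11 in kidney and -0.20 for FFPE against frozen. The call of Gstt2 between organs was lost (0 called) under quantile normalization, that receptor scaling, added reads in proportion to depth, and mitochondrial reads and scaling factors left out, the last also chosen after seeing the data, with adjusted p from 0.055 to 0.19; its fold was -2.90 to -2.19. That last setting moved the median of all genes to -0.14 in liver, 0.11 for FFPE against frozen and 0.29 for the comparison that called Gstt2, where the receptor scaling gave -0.42. For the genes named, 1045 of the alternative values kept their side of the threshold, 156 lost a call and 25 gained one. The 1045 include genes not called in the main fit that stayed so, and thus do not show how often calls held. In liver against the other organs 50 lost a call and 410 kept their side, and in heart 47 and 157. No fold changed sign where called, and the cause was not tested. The planned count test was not run; precision weights were computed from the recovered reads. No paired analysis was possible because the columns carry no replicate number; the block in FFPE against frozen is the organ. Depth limits the values of genes with few reads: FFPE liver and FFPE heart have the fewest.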
